A study of Homo sapiens with 6 samples.

Results

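LaminB1 regions on chromosome 4 were all rows of chromosome 4 in 4 lists of called regions, 1 list per LaminB1 library. Control 1 and 2 had 810 and 1062 of them, double loss 1 and 2 had 1111 and 1113, together 4096 of 49022 regions on chromosomes 1 to 22 and X. The data came from CUT&RUN, in which a nuclease tethered to an antibody frees the bound chromatin, in HCT116, a human colorectal carcinoma line. Both groups derived from HCT116 cells in which endogenous TOP2A carries a mini auxin-inducible degron, a tag that lets auxin trigger degradation of the protein. The control group was the TOP2A mAID line without auxin. Its genotype field reads wildtype, so wildtype here includes the degron tag. The double loss group was TOP2A mAID/TOP2B -/-, given 500 uM auxin for 8 h. The sample annotation gives TOP2A removal of up to 95% for this group. Cells of both groups were arrested in G1 with 2 uM palbociclib, an inhibitor of the cell cycle kinases CDK4 and CDK6, for 28 h. LaminB1 libraries numbered 2 per group and IgG libraries 1, and each group was scored against a control library of its own. Cell line, TOP2B genotype, auxin and control library therefore cannot be told apart. Nothing in the labels says that replicates were separate cultures, so p-values measure only the spread between these libraries, which may be technical. The genes of TOP2A, TOP2B and LaminB1 lie on other chromosomes and were 0% covered in all 4 lists, so the lists hold no check of either loss.

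LaminB1 is a B-type lamin of the meshwork under the inner nuclear membrane. Chromatin that touches this meshwork forms lamina-associated domains, which are usually poor in genes, late replicating and transcriptionally quiet. TOP2A and TOP2B are the type II topoisomerases, which pass one DNA duplex through a break in another and so relax supercoils and resolve tangles. Chromosome 4 is a large chromosome with long stretches of few genes, while the tip of its short arm is dense with genes.

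Regions on chromosome 4 reached gene starts of very different base composition. The 250 bases upstream of 6 gene starts are printed here, as examples of starts inside stretches that were called only in double loss lists, only in control lists, or in all 4. For each class they are the starts with the most and the fewest CG dinucleotides among the 3 starts in its longest stretches that hold one. Sequences are from the RefSeq promoter table of GRCh38.p14, read 5′ to 3′ on the gene's strand, and capitals mark CG dinucleotides. NKX3-2, a homeobox gene of skeletal development, and CSN3, which encodes kappa-casein, started in stretches called in double loss 1 and 2 and in no control list. Their sequences are chr4:13544509-13544758 on the minus strand and chr4:70238131-70238380 on the plus strand. CXCL1, a neutrophil-attracting chemokine, and FGG, the fibrinogen gamma chain, started in stretches called in control 1 and 2 and in no double loss list. Their sequences are chr4:73869143-73869392 on the plus strand and chr4:154612657-154612906 on the minus strand. HHIP, which encodes a Hedgehog-binding protein, and GUCY1A1, a subunit of soluble guanylate cyclase, started in stretches called in all 4 lists. Their sequences are chr4:144645906-144646155 on the plus strand and chr4:155666598-155666847 on the plus strand.
NKX3-2: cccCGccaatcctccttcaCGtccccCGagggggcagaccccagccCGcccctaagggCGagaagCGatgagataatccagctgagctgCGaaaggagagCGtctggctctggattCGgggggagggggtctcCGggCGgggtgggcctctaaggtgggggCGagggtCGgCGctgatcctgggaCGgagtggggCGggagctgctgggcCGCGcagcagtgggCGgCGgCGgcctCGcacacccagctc
CSN3: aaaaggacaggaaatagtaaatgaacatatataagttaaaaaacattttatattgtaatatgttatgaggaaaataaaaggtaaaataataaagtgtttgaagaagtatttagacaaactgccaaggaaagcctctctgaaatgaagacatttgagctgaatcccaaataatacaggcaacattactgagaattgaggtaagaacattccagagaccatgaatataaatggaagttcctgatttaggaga
CXCL1: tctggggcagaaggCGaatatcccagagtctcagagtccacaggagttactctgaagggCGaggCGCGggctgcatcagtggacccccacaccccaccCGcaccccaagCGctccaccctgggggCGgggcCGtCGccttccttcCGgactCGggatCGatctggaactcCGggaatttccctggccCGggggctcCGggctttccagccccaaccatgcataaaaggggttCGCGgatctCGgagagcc
FGG: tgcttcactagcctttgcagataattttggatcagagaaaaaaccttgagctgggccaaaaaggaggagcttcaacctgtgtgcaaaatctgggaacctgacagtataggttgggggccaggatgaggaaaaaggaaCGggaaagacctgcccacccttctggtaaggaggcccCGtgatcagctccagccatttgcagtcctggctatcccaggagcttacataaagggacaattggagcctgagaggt
HHIP: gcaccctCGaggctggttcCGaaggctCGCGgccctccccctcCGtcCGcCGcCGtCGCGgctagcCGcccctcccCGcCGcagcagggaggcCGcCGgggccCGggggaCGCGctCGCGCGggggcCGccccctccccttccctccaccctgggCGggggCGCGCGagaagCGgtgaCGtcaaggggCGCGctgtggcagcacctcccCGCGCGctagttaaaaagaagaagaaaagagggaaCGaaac
GUCY1A1: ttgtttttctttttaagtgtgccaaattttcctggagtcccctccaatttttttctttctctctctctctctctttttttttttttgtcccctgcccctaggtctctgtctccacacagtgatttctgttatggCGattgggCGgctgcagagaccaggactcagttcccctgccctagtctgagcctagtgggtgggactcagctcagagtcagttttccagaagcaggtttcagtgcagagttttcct

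The CG dinucleotide, which reads the same on both strands, occurred 22 times upstream of NKX3-2 and 0 times upstream of CSN3. It occurred 18 times upstream of CXCL1, 2 times upstream of FGG, 34 times upstream of HHIP and 2 times upstream of GUCY1A1. Each class thus held both CG-rich and CG-poor starts. Upstream sequence was matched for 657 of the 770 protein-coding genes of chromosome 4. At least 10 CG dinucleotides stood upstream of 67.1% of these, against 68.6% of 15813 starts on all chromosomes. The share was 62.5% of 24 starts in stretches called in all 4 lists, 57.1% of 7 starts called in double loss only and 66.7% of 9 starts called in control only. It was 37.5% of 72 starts in stretches called in other combinations of lists and 71.4% of 545 starts outside every region. Starts with no CG made up 12.5% of those called in all 4 lists, 13.9% of those called in other combinations, 2.75% of those outside every region and 3.12% over all chromosomes.

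The first comparison asks how much of chromosome 4 lay in LaminB1 regions in the control and double loss groups. Regions covered 40.5 and 36.4 Mb of chromosome 4 in control and 48.3 and 49.7 Mb in double loss. As a share of the 190.197 Mb of the chromosome, this was 21.3% and 19.1% against 25.4% and 26.2%. The groups did not overlap, at 25.8% ± 0.530 (SD, n = 2) against 20.2% ± 1.55 (SD, n = 2). The difference of 5.56 percentage points was the largest increase among the 23 chromosomes. In absolute size it was second to chromosome 20, which had 35.6% and 33.5% in control and 12.6% and 12.9% in double loss, a difference of -21.8 points. A two-sided exact permutation test gave p = 0.333, the smallest p that 2 against 2 libraries allow, and 0.451 after Benjamini-Hochberg adjustment over 23 chromosomes. Both double loss lists lay above both control lists on 65.2% of chromosomes.

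The covered share of the rest of the genome was 19.5% and 18.0% in control and 19.8% and 20.2% in double loss, a difference of 1.2 points. Chromosome 4 minus the rest gave 1.82 and 1.08 points in control and 5.63 and 5.99 points in double loss. These groups did not overlap and differed by 4.36 points (exact permutation test, two-sided, p = 0.333). The rest includes chromosome 20. Without it the rest differed by 1.73 points, and chromosome 4 minus the rest by 3.83 points. Chromosome X is also part of the rest and was almost free of regions, at 0.0192% and 0.0276% in control and 0.0244% and 0.00897% in double loss. It lowers the covered share of the rest in every list, so chromosome 4 minus the rest is overstated in each. The rest without chromosome X was not computed. Chromosome 3, which is of similar length, had 26.6% and 24.6% against 30.3% and 30.5%, and chromosome 5 had 27.7% and 25.4% against 27.7% and 27.7%. The gap between chromosomes 4 and 5 was therefore -6.40 and -6.26 points in control and -2.28 and -1.59 points in double loss. The gap between chromosomes 4 and 3 differed by 0.766 points between the groups. With 4.05 protein-coding genes per Mb, chromosome 4 was the third least dense in genes of the 23.

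**Figure D1:**
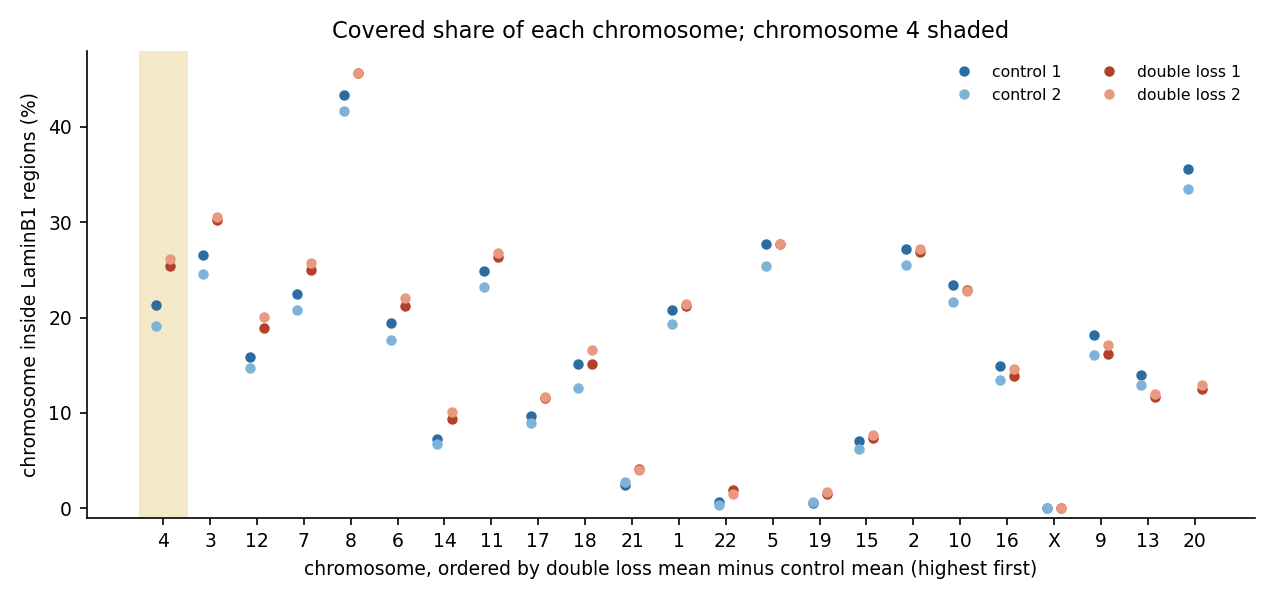
Share of each chromosome inside LaminB1 regions (percent, vertical axis) for 23 chromosomes ordered by double loss mean minus control mean; each point is 1 library and chromosome 4 is shaded. On chromosome 4 the double loss libraries sit at 25.4% and 26.2% and the control libraries at 21.3% and 19.1%.

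Both arms differed between the groups by about the same amount. The short arm, up to 50 Mb, was covered to 19.5% and 17.4% in control and to 23.7% and 24.5% in double loss, a difference of 5.64 points. The long arm was covered to 21.9% and 19.7% in control and to 26.0% and 26.7% in double loss, a difference of 5.54 points. Long arm minus short arm was 2.43, 2.31, 2.33 and 2.21 points in control 1, control 2, double loss 1 and double loss 2. The difference between groups of -0.10 points had an exact permutation p of 0.667 (two-sided), and its sign turned under some definitions of a region.

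Region shape differed between the control libraries as well as between the groups. Median width was 30 and 21 kb in control 1 and 2 and 29 kb in both double loss lists. Control 2 had the more numerous and narrower regions of its group. The widest region of each list was 448, 459, 461 and 512 kb. In control 1 it lay at chr4:146919001-147367000 over TTC29, a gene of sperm flagella, and in control 2 at chr4:154823001-155282000 over RBM46 and NPY2R. In double loss 1 it lay at chr4:14014001-14475000 with no protein-coding gene, and in double loss 2 at chr4:144171001-144683000 over HHIP. The authors' deposited tables give a log2 fold per region against the control library, whose median was 0.59, 0.64, 0.56 and 0.55 on chromosome 4. These folds describe each list alone.

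Depth inside the regions followed their length. Regions of chromosome 4 held 481758 and 461199 LaminB1 reads in control and 626754 and 646793 in double loss. The median region held 338.5, 252, 347 and 342 LaminB1 reads. LaminB1 reads per kb of region were 11.9 and 12.7 in control and 13.0 in both double loss lists. Control-library reads per kb were 6.33 and 6.36 in control and 8.26 and 8.25 in double loss. The control library of the double loss group was thus denser, on chromosome 4 as in all regions, where it gave 6.93, 6.97, 8.86 and 8.83 reads per kb in the same order. Both lists of a group share a control library, so this sets 1 control library per group against the other. Its part in the calls was not tested. The lists give only reads inside regions, so how deeply each library was sequenced is unknown.

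Cut into 38 windows of 5 Mb, chromosome 4 alternated between stretches with almost no called region and stretches with much of their length called. Signal outside called regions is not in the lists. In 8 windows the share was at least 40% in all 4 lists, and in 4 windows it was under 1% in all 4. The highest was the window from 145 to 150 Mb, with 71.8% and 69.2% in control and 70.4% and 69.9% in double loss, where the groups overlapped. The first 5 Mb of the short arm, where 79 protein-coding genes start, had 0.06%, 0%, 0.92% and 0%. Windows with few genes were also among those nearly without regions. The window from 30 to 35 Mb, where only 2 genes start, had 0% in both control lists and 0.42% and 0.48% in double loss, and it holds PCDH7, a protocadherin. Over 38 windows the Pearson correlation of gene starts with covered share was -0.04 and -0.04 in control and -0.13 and -0.12 in double loss, given as a description, since all windows come from the same libraries.

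The difference between groups was spread over many windows and was not uniform. Of 34 windows with at least 1% covered in some list, 17 were higher in double loss and 1 was lower (limma, adjusted p under 0.05, adjusted over 472 windows of all chromosomes). Over all chromosomes 33.3% of windows were higher and 11.4% lower by the same rule. Among the 17 were 5 windows under 1% in both control lists, which passed the filter only through the double loss lists. Without the filter limma called 13 higher and 0 lower of 38, against 14.2% and 3.59% of windows over all chromosomes. Of the 17, 12 stayed called. Quantile normalization of the shares gave 17 higher and 5 lower windows on chromosome 4. By values alone, both double loss lists were above both control lists in 21 of the 34 tested windows and below both in 5, against 51.1% and 21.6% of windows tested over all chromosomes. The median difference of the tested windows was 3.97 points on chromosome 4 and 1.53 points over all chromosomes. The short arm had 4 higher windows of 8 tested, and the long arm had 13 higher and 1 lower of 26. Leaving out double loss 1 or double loss 2 left 4 windows with a call in each case, and an equal number of regions per list left 5. In each of these settings all the windows tested among the 17 stayed in the higher direction.

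**Figure D2:**
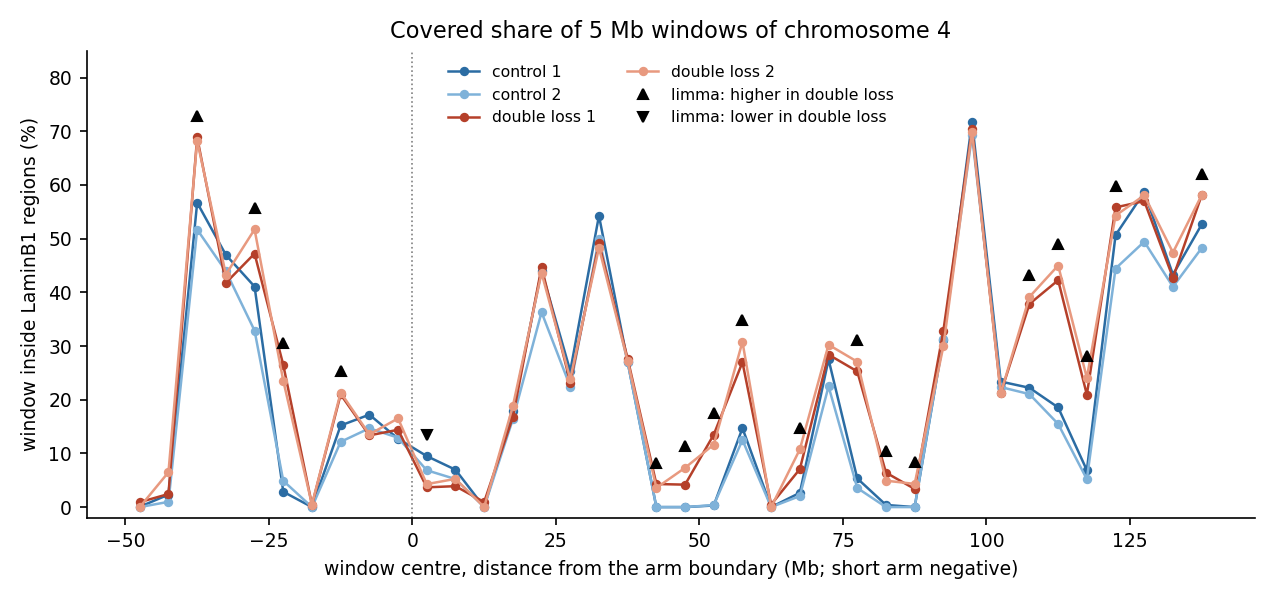
Share of each 5 Mb window inside LaminB1 regions (percent, vertical axis) against distance of the window's centre from the arm boundary at 50 Mb (Mb); each line is 1 library and triangles mark windows called by limma. The double loss lines part from the control lines most at 160 to 165 Mb, where they reach 42.3% and 45% against 18.6% and 15.5%.

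The widest gap was in the window from 160 to 165 Mb on the long arm. It was covered to 18.6% and 15.5% in control and to 42.3% and 45% in double loss, or 17.0% ± 2.18 against 43.6% ± 1.94 (SD, n = 2, limma adjusted p = 2.5e-05). It had 27 and 37 regions in control and 48 and 52 in double loss, with median widths of 26 and 16 kb in control and 30.5 and 30 kb in double loss. This window holds NPY1R and NPY5R, receptors of neuropeptide Y, and MARCHF1, a membrane-bound ubiquitin ligase. Both neighbours on the left and right were higher too. The window from 155 to 160 Mb had 22.2% and 21.0% against 37.8% and 39.2% (limma adjusted p = 0.00019). The window from 165 to 170 Mb had 6.86% and 5.20% against 20.9% and 24.1% (limma adjusted p = 5.8e-05).

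Next in size were windows that were nearly empty in control. From 125 to 130 Mb, a window that holds the giant cadherin gene FAT4, 5.34% and 3.56% in control stood against 25.3% and 27.1% in double loss (limma adjusted p = 1.2e-05). Its 10 and 8 regions in control compared with 43 and 45 in double loss. From 25 to 30 Mb on the short arm, 2.86% and 4.90% stood against 26.5% and 23.5% (limma adjusted p = 1.9e-05), with 6 and 11 regions against 40 and 37. Region width in that window was close to the chromosome's median, at 27 kb in both double loss lists. In both windows the groups were far apart relative to the spread within them.

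A belt of the long arm from 90 to 110 Mb had 4 windows in a row called higher. Those from 90, 95 and 100 Mb were empty or nearly empty in control. The window from 90 to 95 Mb had no region in either control list and 4.3% and 3.58% in double loss. The window from 95 to 100 Mb had no region in control and 4.18% and 7.32% in double loss. From 100 to 105 Mb the shares were 0.3%, 0.38%, 13.5% and 11.6%, and from 105 to 110 Mb they were 14.7%, 12.5%, 27.0% and 30.8%. Of the 9 windows of chromosome 4 under 1% in both control lists, 5 reached at least 1% in both double loss lists. They were those from 90, 95, 100, 130 and 135 Mb. These 5 entered the test only through the double loss lists and could hardly be called lower, so the filter largely set their direction. The other 4 stayed under 1% in all 4 lists, among them those from 60 to 65 Mb, which holds the adhesion receptor gene ADGRL3, and from 110 to 115 Mb. Other higher windows were those starting at 10, 20, 35, 115, 130, 135, 170 and 185 Mb.

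Called windows were found at every starting level. Of 12 tested windows with a control mean under 10%, 9 were higher and 1 lower, and the median difference of the 12 was 5.61 points. Of 13 tested windows between 10% and 40%, 5 were higher, with a median difference of 2.63 points. Of 9 tested windows at 40% or more, 3 were higher, with a median difference of 3.49 points. A window empty in control entered the test only if a double loss list covered at least 1% of it. This choice raises the share called and the median difference among windows of low control coverage. Over all 16 windows with a control mean under 10%, tested or not, the median difference was 3.895 points. Whether the share of windows called depends on starting level was not tested.

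The single lower window was that from 50 to 55 Mb, beside the centromere on the long arm, which holds the receptor tyrosine kinase genes PDGFRA and KIT. It had 9.50% and 6.86% in control and 3.68% and 4.28% in double loss, or 8.18% ± 1.87 against 3.98% ± 0.424 (SD, n = 2, limma adjusted p = 0.0146). Regions there numbered 15 and 15 against 5 and 9. Among the upper 50% of regions by log2 fold the difference was 0.17 points, in the other direction. In that setting, and with an equal number of regions per list, limma called 0 windows of chromosome 4 lower. Without the filter on windows it called 13 higher and 0 lower of 38. The other windows with both double loss lists below both control lists were not called. They were those from 15 to 20 Mb, 40 to 45 Mb, 80 to 85 Mb and 150 to 155 Mb, with differences of -2.92, -2.50, -3.43 and -1.66 points.

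Read density inside regions was compared next, as LaminB1 reads per kb of each list's own regions. The groups were thus compared over partly different sequence. From 125 to 130 Mb, this was 5.34% and 3.56% of the window in control against 25.3% and 27.1% in double loss. A change in which sequence was called cannot be told apart here from a change in density. Densities were centred on each library's median window, and 28 windows of chromosome 4 with at least 50 kb called in every list were tested. Of these 7 were denser and 2 less dense in double loss (limma, adjusted p under 0.05), against 12.4% and 12.2% of 418 windows over all chromosomes. The largest difference was 0.19 ± 0.011 (log2, SE, n = 2) from 10 to 15 Mb, followed by 0.17 ± 0.022 from 45 to 50 Mb. Next came 0.16 ± 0.023 from 125 to 130 Mb and 0.11 ± 0.012 from 105 to 110 Mb, both of which also had a higher covered share. The windows from 160, 185 and 175 Mb had 0.09, 0.07 and 0.05. The windows from 155 and 150 Mb had -0.09 and -0.06, so the window from 155 to 160 Mb had more sequence in regions at a lower relative density.

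In some windows the control library differed as well. From 10 to 15 Mb it had 6.5 and 6.5 reads per kb in control against 9.6 and 9.7 in double loss. From 45 to 50 Mb it had 8.3, 8.5, 12.4 and 11.8. In the other 26 windows tested, control-library reads per kb ran from 6.0 to 7.07 and from 5.74 to 7.64 in control, and from 7.70 to 8.37 and from 7.68 to 8.36 in double loss. Relative to each library's median window, the control library differed by 0.21 and 0.16 (log2) in these 2 windows and by -0.19 to 0.09 in the other 26. The lowest values were -0.19 in the window from 165 Mb, -0.11 in that from 25 Mb and -0.09 in that from 160 Mb. These windows were among those with the widest gaps in covered share. Control-library density was also taken over each list's own regions, so it too compares partly different sequence. The window from 90 to 95 Mb, which has no control regions and was not tested, had 11 and 11.2 control-library reads per kb in double loss. The part of the control-library density in the LaminB1 densities and covered shares of all these windows was not tested. In the windows from 105 and 125 Mb the control library stood at -0.07 and -0.01 (log2).

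**Figure D3:**
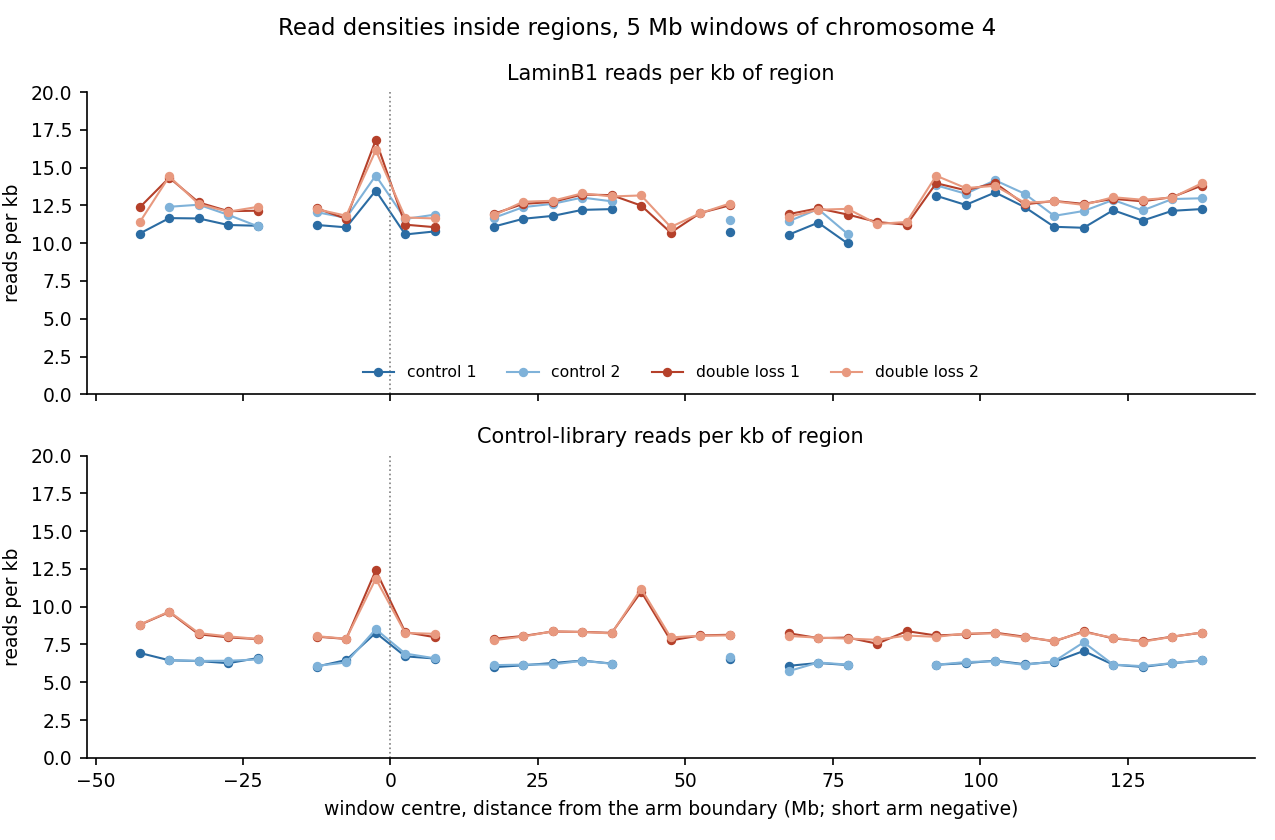
LaminB1 reads (upper panel) and control-library reads (lower panel) per kb of region in 5 Mb windows, against distance of the window's centre from the arm boundary (Mb); each line is 1 library, and windows with under 50 kb called in a library are left blank for it. Control-library density in double loss lies between 7.68 and 8.37 in most windows and at 9.6 to 12.4 in the windows from 10, 45 and 90 Mb.

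At finer scale the window from 10 to 15 Mb was not one unit. From 13 to 14 Mb the covered share was 59.7% and 62.4% in control and 97.9% and 95.0% in double loss. There LaminB1 had 11.7, 12.5, 15.8 and 16.2 reads per kb, and the control library had 6.57, 6.58, 11.4 and 11.4. From 14 to 15 Mb the shares were 63.2%, 45.3%, 83.1% and 74.0%, with 6.28, 6.23, 10.2 and 10.4 control-library reads per kb. The neighbouring steps from 12 to 13 Mb and from 15 to 16 Mb had 8.08, 8.19, 8.54 and 8.62 control-library reads per kb in double loss. From 16 to 17 Mb, over LDB2, the share was 68.9% and 64.2% in control and 48.6% and 57.3% in double loss. Without the windows from 10, 45 and 90 Mb the difference over chromosome 4 was 5.44 points, and 15 higher and 1 lower windows remained called. Windows where the control library was relatively less dense in double loss stayed in.

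Stretch by stretch, regions of the 4 lists overlapped over much of their length. Any list covered 66.9 Mb of chromosome 4, and all 4 lists shared 22.6 Mb, or 33.7%. Sequence of both double loss lists that no control list held, called gained here, summed to 6.969 Mb, or 10.4%. Sequence of both control lists that no double loss list held, called lost here, summed to 1.599 Mb, or 2.39%. Pairs of 1 control and 1 double loss list alone shared between 1.10 and 1.84 Mb, so the lost length lay within the range of these mixed pairs and the gained length above it. Lists of a mixed pair do not share a control library, and the double loss lists covered more sequence than the control lists. This range therefore cannot tell gained sequence from spread between libraries. With 1 library left out, so that fewer lists had to agree, gained length was 9.85 to 13.9 Mb and lost length 3.18 to 4.37 Mb. Chromosome 4 held 12.4% of the gained and 4.11% of the lost sequence of the genome, and 6.84% of that in all 4 lists. Of the 38.861 Mb lost over the genome, 8.83 Mb lay on chromosome 20. Chromosome 3 was close to chromosome 4, with 6.741 Mb gained and 1.684 Mb lost, or 8.58% and 2.14% of its sequence in any list. The Jaccard index over 1 kb steps was 0.624 between the control lists, 0.607 between the double loss lists and 0.517 to 0.553 across groups. Lists of a group share their control library: where both had a region with the same edges, its control count was the same in 9 of 9 cases.

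Gained sequence was cut into many short stretches. There were 656, with a median of 8 kb, and 391 of them touched a step called in a control list. These 391 summed to 2.87 Mb, and the stretches that touched no such step summed to 4.10 Mb. Stretches of at least 20 kb numbered 101 and summed to 2.84 Mb. The window from 25 to 30 Mb held 15 of these, the window from 125 to 130 Mb held 12 and the window from 160 to 165 Mb held 11. Control-library density was over 10 reads per kb in both double loss lists in 8 of the 101, which were all 5 of the window from 10 Mb and all 3 of the window from 90 Mb. In the other stretches it ran from 6.48 to 9.27 and from 6.61 to 9.20 reads per kb. Averaged over all gained sequence, LaminB1 had 12.5 and 12.6 reads per kb in double loss and the control library 8.29 and 8.33. Over sequence in all 4 lists the double loss libraries had 13.6 and 13.6 LaminB1 reads per kb and 8.34 and 8.34 control reads per kb. Gained sequence was thus less rich in LaminB1 reads than sequence in all 4 lists, at log2 ratios of 0.59 and 0.60 against 0.71 and 0.71. Lost sequence in the control lists was at 0.82 and 0.91, against 0.96 and 1.04 for sequence in all 4 lists. The classes were set by calls on these same reads, so lower ratios in gained and lost sequence follow at least in part from that choice. Reads of a region were spread evenly over its length for these averages.

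The longest gained stretch, 62 kb at chr4:91150001-91212000, lay inside CCSER1, one of the longest genes of the chromosome. It had 13.5 and 13.7 LaminB1 reads per kb and 11.9 and 11.7 control reads per kb. The next, 58 kb at chr4:27965001-28023000, lay 940 kb from the nearest protein-coding gene, STIM2, with 7.55 and 7.53 control reads per kb. NKX3-2 lay in the third, 55 kb at chr4:13491001-13546000, with 12.5 and 12.9 control reads per kb. The other long stretches, at chr4:129503001-129558000 and chr4:106578001-106628000, held no gene. Where gained stretches were joined, the longest blocks were 148 kb at chr4:28539001-28687000, 133 kb at chr4:157393001-157526000 and 119 kb at chr4:13445001-13564000. No control region reached into any of these 3 blocks, and the double loss lists covered 89.9% and 92.6%, 93.2% and 91.0%, and 94.1% and 90.8% of them. The 133 kb block lay next to GRIA2, which encodes a subunit of AMPA glutamate receptors, and the 119 kb block spanned NKX3-2 and one end of RAB28.

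**Figure D4:**
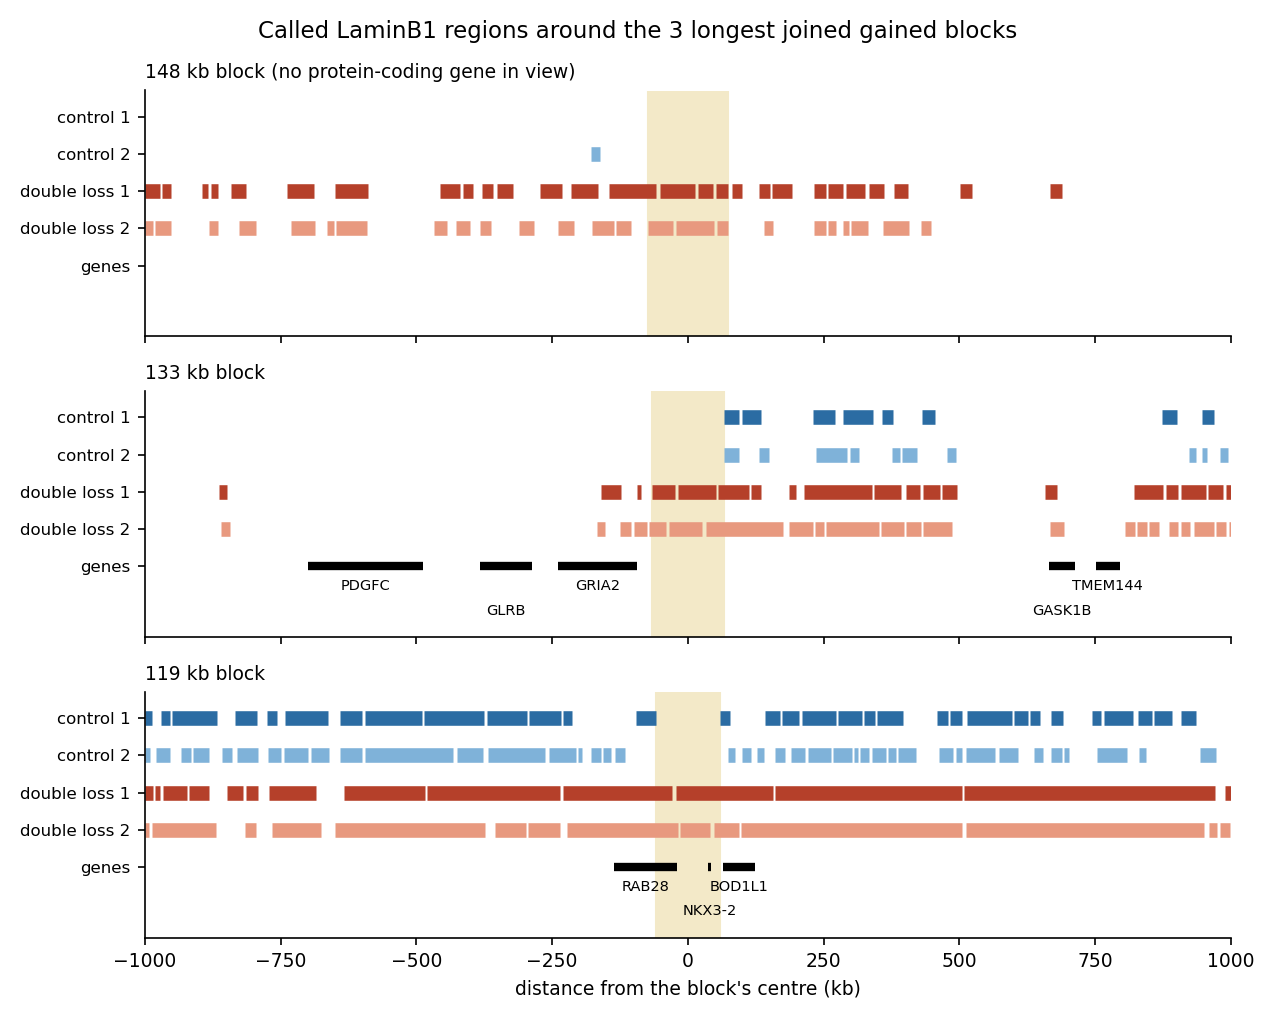
Called LaminB1 regions of the 4 libraries (bars) and protein-coding genes (black bars) around the centres of the 3 longest joined gained blocks, which are shaded; the horizontal axis is distance from the block's centre (kb). No control bar enters the shaded blocks, the surroundings of the 148 kb block are nearly free of control regions, and those of the 119 kb block hold many in every list.

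Lost sequence was shorter and lay mostly at the edges of other regions. It had 257 stretches with a median of 4 kb, and 207 of them touched a step called in a double loss list. The longest was 47 kb at chr4:178175001-178222000, 733 kb from the nearest gene, AGA. Stretches of 28 and 30 kb at chr4:54866001-54894000 and chr4:54902001-54932000 lay between KIT and KDR, genes of the stem cell factor and VEGF receptors. One of 23 kb at chr4:71080001-71103000 lay inside SLC4A4, a sodium bicarbonate cotransporter gene. Its body was 84.6%, 80.9%, 79.1% and 84.6% covered, so the stretch was a small part of a body that stayed mostly in regions.

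Sequence in all 4 lists formed the longest runs. The first was 283 kb at chr4:144400001-144683000 over HHIP, with 13.6, 14.4, 15 and 15.2 LaminB1 reads per kb. The second was 186 kb at chr4:146669001-146855000 over TTC29, and the third was 176 kb at chr4:176516001-176692000 over VEGFC, a lymphatic growth factor gene. Blocks of such runs joined with their neighbours included 514 kb over RBM46 and NPY2R and 470 kb over SCRG1 and HAND2, a transcription factor of heart and limb development.

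Gene content differed between the classes. Gene bodies made up 29.5% of sequence in all 4 lists, 23.6% of gained, 30.5% of lost and 41.4% of sequence in no list. Protein-coding gene starts with matched upstream sequence numbered 1.06 per Mb in all 4 lists, 1.00 in gained, 5.63 in lost and 4.42 in sequence outside every region. The lost class had 9 starts and the gained class 7, so these rates rest on few genes. The longest stretches in no list were 5.02 Mb at chr4:81001-5104000 with 81 genes and 4.04 Mb at chr4:86785001-90825000 with 32. One of 3.92 Mb at chr4:29303001-33219000 held only 2, of which one is PCDH7.

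In 100 kb bins, 9 bins of chromosome 4 were higher and 1 was lower of 944 tested (limma, adjusted p under 0.05), against 0.642% and 0.296% of bins over all chromosomes. An unadjusted p under 0.05 was found for 222. Both double loss lists were above both control lists in 336 bins and below both in 94, against 24.5% and 15.6% over all chromosomes. A gap of at least 50 points between the groups was found in 35 bins upward and 2 downward, against 1.59% and 1.25% of the 12152 bins over all chromosomes. Among the called bins with wide gaps, chr4:28600001-28700000 had 0% in both control lists and 83% and 82% in double loss. The bin chr4:28900001-29000000 had 0%, 0%, 72% and 68%, and chr4:106500001-106600000 had 0%, 0%, 63% and 63%. The widest gap, 0%, 0%, 95% and 88% at chr4:157400001-157500000, had a limma adjusted p of 0.0501 and was not called. Also empty in both control lists were the called bins chr4:103200001-103300000, with 62% and 61% in double loss, and chr4:123900001-124000000, with 63% and 67%. Called bins that were empty in control passed the filter only through the double loss lists. The remaining bins called higher were largely covered in control already, such as chr4:12900001-13000000 with 96%, 95%, 100% and 100%. The called bins chr4:13700001-13800000, chr4:144700001-144800000 and chr4:181700001-181800000 differed by 8, 4 and 11 points. The single lower bin, chr4:81500001-81600000, went from 100% in both control lists to 96% in both double loss lists. The number of calls depended on the fit: leaving out control 1 gave 18, leaving out double loss 1 or 2 gave 196 and 193, and quantile-normalized shares gave 0, with 213 at an unadjusted p under 0.05.

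Of 770 protein-coding genes of chromosome 4, 210 (27.3%) had some of their body in a region in at least 1 list, against 15.3% of 19974 genes over all chromosomes. The 19974 include genes of chromosome X, which was almost free of regions in every list. At least 50% of the body was in regions in all 4 lists for 51 genes, or 6.62%, against 4.28% over all chromosomes. Both double loss lists were above both control lists for 54 of the 210 and below both for 22, against 21.5% and 13.9% of covered genes over all chromosomes. The median difference was 3.89 points on chromosome 4 and 0.768 points over all chromosomes. Reaching 50% in both double loss lists but in no control list were 8 genes, RAB28, NKX3-2, FDCSP, CXCL5, BMP3, MMAA, MARCHF1 and TRIM60, against 0.756% of all protein-coding genes. The reverse held for 4, UGT2B15, PF4V1, QRFPR and FGG, against 0.546%. These 12 were listed after their values were seen.

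limma called 4 genes higher and 2 lower of 210, or 1.9% and 0.952%, against 1.67% and 0.981% of covered genes over all chromosomes. These shares were close to those over all chromosomes, and 31 genes had an unadjusted p under 0.05. FDCSP, which encodes a secreted protein of follicular dendritic cells, and TRIM60, a tripartite motif gene, went from 0% in both control lists to 100% in both double loss lists. Both genes entered the test only through the double loss lists. MUC7, a salivary mucin gene, went from 68.6% and 67.6% to 100% in both, and NPY5R from 63.5% in both to 100% in both. PF4V1, a platelet factor 4 variant gene, and FGG went from 100% in both control lists to 0% in both double loss lists. Both of these entered only through the control lists. Each of the 6 had a limma adjusted p of 0.0142. Of these 6, 5 were under 20 kb long and had no spread within either group. Several of these differences depended on which regions were counted. With an equal number of regions per list TRIM60 had a difference of 0 points and PF4V1 of -50 points. Among the upper 50% of regions by log2 fold TRIM60 and PF4V1 had 0 points, FGG -50 and NPY5R 68.3 points. With regions under 10 kb apart merged NPY5R had 0 points. FDCSP kept 100 points in all 3 settings. With 10 kb flanks added PF4V1 stood at -47.8 and NPY5R at 17.3 points. With these flanks limma called 0 genes, with 38 at an unadjusted p under 0.05. Leaving out control 1, control 2, double loss 1 or double loss 2 gave 20, 25, 45 and 38 calls.

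Among genes of at least 20 kb the widest gap upward was at RAB28, a small GTPase gene linked to cone photoreceptors, with 30.9% and 15.4% in control and 94.0% and 100% in double loss. It lies in the stretch with the denser control library. MARCHF1, of 860 kb, had 22% and 18.7% against 79.2% and 77.8% (limma adjusted p = 0.0843), the most sequence of any gene in this set. MMAA, a gene of mitochondrial vitamin B12 metabolism, had 22.2% and 5.00% against 88.6% and 69.0%. SULT1B1, a sulfotransferase gene, had 0% in both control lists and 40.1% and 57.3% in double loss. The others were TLL1, GASK1B, CTSO, BMP3, TACR3 and PABPC4L, with gaps between groups of 17.8 to 35 points. In all 10 the groups did not overlap, by choice of the genes, and none passed the test. Most of these gaps changed with the regions counted. Among the upper 50% of regions by log2 fold, RAB28, MMAA, CTSO and BMP3 differed in the other direction, and GASK1B, TACR3 and PABPC4L had a difference of 0 points. SULT1B1 went from 48.7 to 20.1 points and TLL1 from 43.2 to 22.1, while MARCHF1 stood at 59.8 points. With an equal number of regions per list TACR3 and PABPC4L had 8.96 and 8.88 points, and with 10 kb flanks MMAA had 42.8.

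The widest gap downward was at UGT2B15, which encodes an enzyme that conjugates androgens with glucuronic acid, with 69.2% and 74.8% in control and 5.84% and 0% in double loss (limma adjusted p = 0.111). LDB2, of 397 kb, encodes a LIM domain binding protein and had 91.7% and 89.5% against 70.4% and 71.8%. LEF1, a transcription factor of the Wnt pathway, had 31.2% and 26.4% against 0% and 16.5%. RASGEF1B, QRFPR, CC2D2A, GC, ATP8A1, MAP9 and ANTXR2 followed, with gaps of 3.18 to 26.4 points. None of these 10 passed the test. Among the upper 50% of regions LEF1 had a difference of 0 points, QRFPR, CC2D2A, ATP8A1 and ANTXR2 had -19.1, -5.32, -5.63 and -7.50, and RASGEF1B and LDB2 had -79.2 and -44.4 against -31.8 and -19.5 with all regions. With an equal number of regions LEF1 had -7.39 points, and with 10 kb flanks UGT2B15 had -43.9. Without control 1, CC2D2A, MAP9 and ANTXR2 had -10.6, -15.1 and -7.93 points, against -26.6, -35.4 and -20.7 with all libraries.

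**Figure D5:**
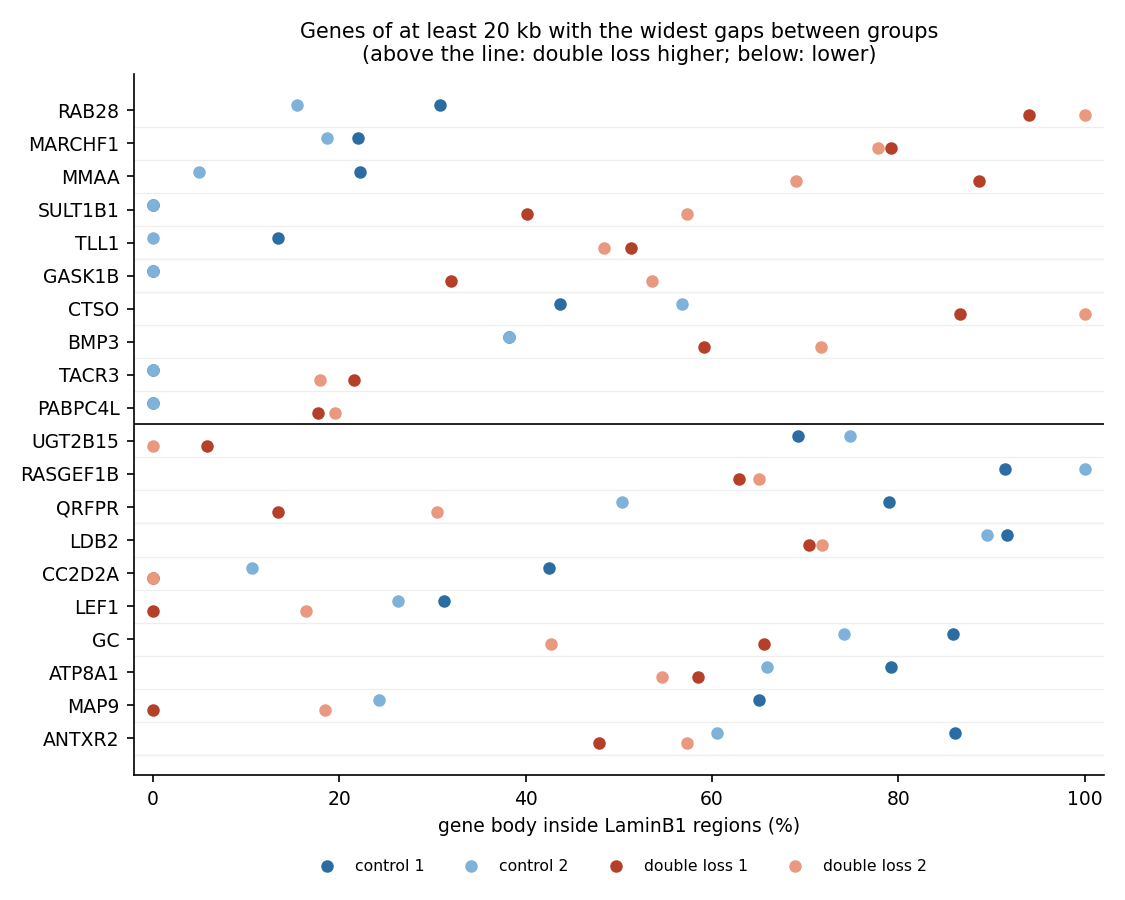
Share of the gene body inside LaminB1 regions (percent, horizontal axis) for the 10 genes of at least 20 kb with the widest gaps in each direction; each point is 1 library, and points of equal value lie over each other. RAB28 has 30.9% and 15.4% in control and 94.0% and 100% in double loss, and UGT2B15 has 69.2% and 74.8% against 5.84% and 0%.

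Long genes of the chromosome lay at both extremes. ADGRL3 and INPP4B had 0% in all 4 lists. TENM3, of 1355 kb, which encodes a teneurin of synapse formation, had 90.2% and 83.6% in control and 86.2% and 87.2% in double loss. CCSER1, of 1478 kb, had 0% in both control lists and 13.6% and 12.1% in double loss. KCNIP4, a potassium channel partner gene, had 38.8% and 27.8% against 51.6% and 48.7%, and GALNTL6 had 40.4% and 36.0% against 45.9% and 52.5%. CCSER1, KCNIP4 and GALNTL6 did not overlap between groups and TENM3 did, and none passed the test.

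Of 19 long neuronal and adhesion genes of chromosome 4, 14 were covered in at least 1 list, 8 with both double loss lists above both control lists and 1 below. Over all chromosomes these shares were 21.5% and 13.9% of covered genes, which is the background for the counts of each list that follows. The mean share over the 19 was 27.1% and 26.0% in control and 35% and 39.5% in double loss. The median difference of the 19 was 4.91 points, and none was called. SPOCK3, a proteoglycan gene, had 0% in both control lists and 25.7% and 33.6% in double loss, and FAT4 had 0% in both and 15.1% and 57.8%. GRIA2, a glutamate receptor gene, had 0% in both control lists and 25.4% and 26.8% in double loss (limma adjusted p = 0.0539). The GABA-A receptor cluster differed, with 34.9% and 35.7% against 26.2% and 38.7% over its 4 genes, so the groups overlapped. In it GABRB1 had 73.3% and 62.3% against 67.1% and 79.3%. The 3 protocadherin genes were in no region.

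Gene families of secreted proteins on the long arm gave mixed values. Of 16 casein, salivary and enamel genes 13 were covered, 3 with both double loss lists above both control lists and 1 below, and FDCSP and MUC7 were called higher. The mean of the 16 was 48.8% and 24.8% in control and 64.3% and 51.2% in double loss. AMTN, an enamel protein gene, had 100% and 45.4% against 0% and 17.2%. Of 13 CXC chemokine genes 7 were covered, 1 above and 2 below, and PF4V1 was called lower. CXCL5 had 11.8% and 0% against 100% and 100% (limma adjusted p = 0.0977). The mean over the 13 was 34.1%, 29.5%, 25.9% and 32.5%, so a family with members at both extremes had overlapping groups.

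Among liver genes, the fibrinogen and plasma protein list had 5 of 6 members covered, 1 above and 2 below, with FGG called lower. Its mean was 50.9% and 53.3% in control and 35.7% and 11% in double loss. FGB, the beta chain, had 28.6% and 69.3% in control and 0% in both double loss lists, and FGA, the alpha chain, had 100% in both control lists and 100% and 0% in double loss. The 4 genes of the albumin family had means of 70.4%, 65.2%, 60.1% and 66.0%. Of 10 UGT2 glucuronosyltransferase genes 7 were covered, 1 above and 1 below, with means of 21.5%, 11.3%, 11.9% and 15.2%. The 7 alcohol dehydrogenase genes were in no region.

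All 5 TMPRSS11 genes, proteases of airway and other epithelia, were covered in every list, with means of 85.9%, 75.3%, 82.2% and 78.5%, and the groups overlapped. All 3 neuropeptide Y receptor genes were at least 50% covered in every list, with means of 85.1% and 77.0% in control and 93.6% and 100% in double loss, and NPY5R was called higher. Of 10 developmental transcription factor genes 4 were covered, 1 above and 1 below. The most different were NKX3-2, at 0% in both control lists and at 100% and 74.8% in double loss, and HAND2, at 100% in both control lists and at 100% and 5.53% in double loss. Of 3 receptor tyrosine kinase genes in band 4q12, KIT had 43.2% in control 1 only, KDR had 0% and 40.3% in control and 0% and 61.6% in double loss, and PDGFRA had none. Of 5 Toll-like receptor genes only TLR2 was covered. The 5 bone and tooth matrix genes and all 13 broadly expressed genes of band 4p16 that were matched were in no region.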

How the data were processed

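Read pairs of 75 bp came from LaminB1 CUT&RUN, per the labels' protocols. The submitters' processing notes name Bowtie2 2.3.4.3, Picard and hg38. Which caller made the regions is not given in the sources used here. The 4 deposited lists give regions on a 1 kb grid, called per library. Each region has a count of LaminB1 reads and a count of control-library reads, not normalized, as the authors deposited them. The deposited p-values and adjusted p-values, the deposited score and the deposited log2 fold per region are the authors' values. The score is 100 times the fold, and both were used only within a list. Lists of the 2 IgG libraries, 1 per group, were not analysed here. Whether these libraries are the control libraries is not given in the sources used here; if so, control-library densities compare 1 IgG library per group. Regions on other chromosomes, 1 or 2 per list, were left out. Columns of other samples numbered 0.

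Coverage was computed in 1 kb steps with Python 3.11.15, numpy 2.4.6 and pandas 2.3.3, and coordinates are printed from 1. Genes and chromosome ends came from the RefSeq table of GRCh38.p14, which shares hg38's primary coordinates. Arms were divided at 50 Mb. Shares of 5 Mb windows (at least 1% covered in 1 list), 100 kb bins (at least 5%) and gene bodies (any) were arcsine square root transformed and tested with limma 3.58.1 (R 4.3.3) over all chromosomes, with a trended variance, Benjamini-Hochberg adjustment and a threshold of 0.05. LaminB1 reads per kb were tested as log2 values. Single values were compared over libraries with two-sided exact permutation tests. The limma step was tested on simulated data. The members, gene lists and tests were chosen with earlier results of these data known.

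Named genes were those of at least 20 kb with the 10 widest gaps between groups in each direction (1 per Mb at most), the 2 most different members of each list, the 8 longest genes, and genes in the 5 longest stretches of a class. Windows with the 5 widest gaps were named. Of the 14 listed genes of band 4p16, 13 were matched. Some genes that this rule picks are not reported here. Further genes were named after their values were seen. Alternatives left out each library, blocked on replicate number, and changed regions, windows, filters, flanks, transformation and normalization. Leaving out 3 windows, and leaving chromosome 20 out of the rest of the genome, were chosen after seeing the data.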

Additional observations from a re-analysis of the deposited data

How the results depend on the processing

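Higher coverage of chromosome 4 in double loss kept its direction in every alternative, at 4.10 to 6.66 points, as did chromosome 4 minus the rest, at 3.61 to 4.73 points. With same-numbered libraries taken as pairs, a replicate block, both differences were unchanged at 5.56 and 4.36 points, and an exact sign-flip test over 2 pairs allows no p under 0.5. Same-numbered libraries did not deviate together (correlation -0.05 over 472 windows and -0.01 over 12152 bins). Whether they were paired in culture or handling is not given, and 2 libraries per group cannot settle it. The replicate block in limma gave 17 higher and 1 lower windows, 0 bins (190 at an unadjusted p under 0.05), 0 genes (26 unadjusted) and 7 denser and 3 less dense windows. Long arm minus short arm turned to 0.21, 0.14 and 0.0465 points with an equal number of regions per list, an adjusted p of at most 0.01 and merged regions. Leaving out 1 library gave 9.85 to 13.9 Mb gained and 3.18 to 4.37 Mb lost, 4 to 20 called windows, 10 to 196 bins and 20 to 45 genes; with 1 library in a group, that library is assumed to vary like the others. The upper 50% of regions gave 10 windows and 0 bins (191 unadjusted), and an equal number of regions gave 5 windows and 0 bins (193 unadjusted). Merged regions gave 32 bins, untransformed shares 0 (226 unadjusted), quantile-normalized shares 0 (213 unadjusted), no filter 66, and 50 kb bins 54. Windows of 2 Mb gave 31 calls, and 10 kb flanks gave 0 genes (38 unadjusted). Without chromosome 20 in the rest of the genome, chromosome 4 minus the rest was 3.83 points. Among the upper 50% of regions, RAB28, MMAA, CTSO and BMP3 stood at -7.72, -13.6, -13.6 and -19.1 points, and the window from 50 Mb at 0.17. The causes were not tested. Gene bodies without a filter could not be fitted and were not run. Without the windows from 10, 45 and 90 Mb, gained and lost length were 6.27 and 1.49 Mb. Depth is known only inside regions, so windows with few called kb have no density.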
